A study of Mus musculus with 24 samples.

Results

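The 10 genes described here encode components of the inflammasomes and of pyroptosis, the lytic cell death that inflammasomes set off. They were taken by name and not by a rule on measured values, but with earlier results of these data known. They are the sensors Nlrp3, Aim2 and Nlrc4, the adaptor Pycard and the NLRP3 partner Nek7, the caspases Casp1, Casp4 and Casp8, and the membrane executors Gsdmd and Ninj1. Each symbol was matched through its Ensembl identifier to 1 row of the deposited table, which gave 10 of 22165 genes. Their mRNA was followed in bone marrow-derived macrophages (BMDMs) grown for 7 days in M-CSF from WT C57BL/6N mice and from Irg1-/- C57BL/6N mice. The sample labels give the mice an age of 8 to 20 weeks, and the methods give up to 24 weeks. Irg1 (Acod1) encodes the enzyme that makes itaconate, and the Irg1-/- mice lack it in every cell type. WT mice came from a commercial breeder, so genotype and colony cannot be told apart. Each genotype was left unstimulated (Unstim.), given 100 ng/ml LPS for 3 h (LPS 3h) or for 24 h (LPS 24h), or given LPS for 24 h, rested for 1 h in fresh medium and given LPS again for 3 h (LPS 24h->LPS 3h, restimulated). The LPS 3h cells went through the same medium change and rest, and no group is labelled as having received an inflammasome trigger such as ATP. The Unstim. and LPS 24h cells are not recorded with this rest. Responses measured against these groups therefore take in the medium change and rest together with the LPS that followed, where the other group had them. Each of the 8 groups held 3 independent cultures, 24 libraries in all.

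As background, inflammasomes are activated in 2 steps. In the first, called priming or signal 1, a microbial product such as LPS raises the amounts of sensors and substrates through Toll-like receptors, NF-kB and interferon signalling. In the second, a sensor meets its trigger and recruits the adaptor ASC, the product of Pycard, which gathers caspase-1. Caspase-1 cleaves pro-IL-1β and gasdermin D, and the freed part of gasdermin D opens pores in the plasma membrane. Caspase-11, the product of mouse Casp4, binds LPS in the cytosol and cleaves gasdermin D without a sensor of the NLR family, and NINJ1 ruptures the dying cell. mRNA levels bear on the supply of these parts, and the activation of the proteins was not measured in these libraries.

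The libraries held 3927378 to 20430359 reads on genes, and each of the 10 members had at least 73 reads in every library. Levels are given as normalized CPM, the counts scaled to library size with edgeR's TMM factors. The libraries come from the 3′ ends of transcripts, so levels were compared between groups and not between genes. Groups were compared by the quasi-likelihood test of edgeR over the 11878 genes with enough counts, with Benjamini-Hochberg adjustment over all of them and a threshold of 0.05, and all 10 members were among the genes tested. Acod1 checked the genotype labels: in the LPS-treated groups it had 3794 to 28063 normalized CPM in WT cultures and 1.58 to 26.4 in Irg1-/- cultures, while unstimulated cultures had 5.82 to 11.9 in both genotypes and could not be checked in this way. The sample labels carry 4 prefixes that are read here as library pools. All unstimulated libraries were in pool 4, no Irg1-/- LPS library was in that pool, and pool and treatment therefore cannot be told apart for the Irg1-/- responses against Unstim. except through a model term. Genotype was uneven over the pools too: Irg1-/- cultures at LPS 24h came from pool 1 alone and at LPS 3h from pools 2 and 3, whereas each WT LPS group had 1 library in each of pools 1, 2 and 4. Summed markers of macrophages (8 of 8 genes, among them Adgre1, Csf1r and Lyz2) ranged from 3319 to 9833 normalized CPM over the libraries. Lists for B cells, T and NK cells, mast cells or basophils and dendritic cells summed to at most 2.45, 1.70, 1.46 and 11.1. The neutrophil list, mostly from Mmp8 and with Ly6g at a median of 0, moved with treatment. In WT it summed to 146 to 155 in Unstim., 94.5 to 124 at LPS 3h, 56.0 to 117 at LPS 24h and 27.6 to 59.2 after restimulation. In Irg1-/- the sums in the same order were 102 to 179, 87.9 to 117, 58.7 to 75.8 and 61.1 to 102, so that the restimulated cultures of the genotypes did not overlap. The stromal list (Col1a1, Col1a2, Col3a1, Dcn and Pdgfra) summed to 263 to 434 in the Unstim. and LPS 3h cultures and to 103 to 246 in the LPS 24h and LPS 24h->LPS 3h cultures of both genotypes. The part of these lists in the results was not tested. Fewer cells of a type and less RNA per cell cannot be told apart in such bulk samples.

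The clearest movements were those of Nlrp3, Casp4, Aim2 and Casp1, which rose after LPS 3h in both genotypes. Gsdmd rose less, and with the pool as a term its rise passed the threshold in neither genotype. Nlrp3 was the only member that rose on restimulation. Aim2, Casp4 and Nlrp3 stood lower in restimulated cells than in cells that met LPS for the first time. No member passed the threshold between Irg1-/- and WT cells in any treatment.

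**Figure D1:**
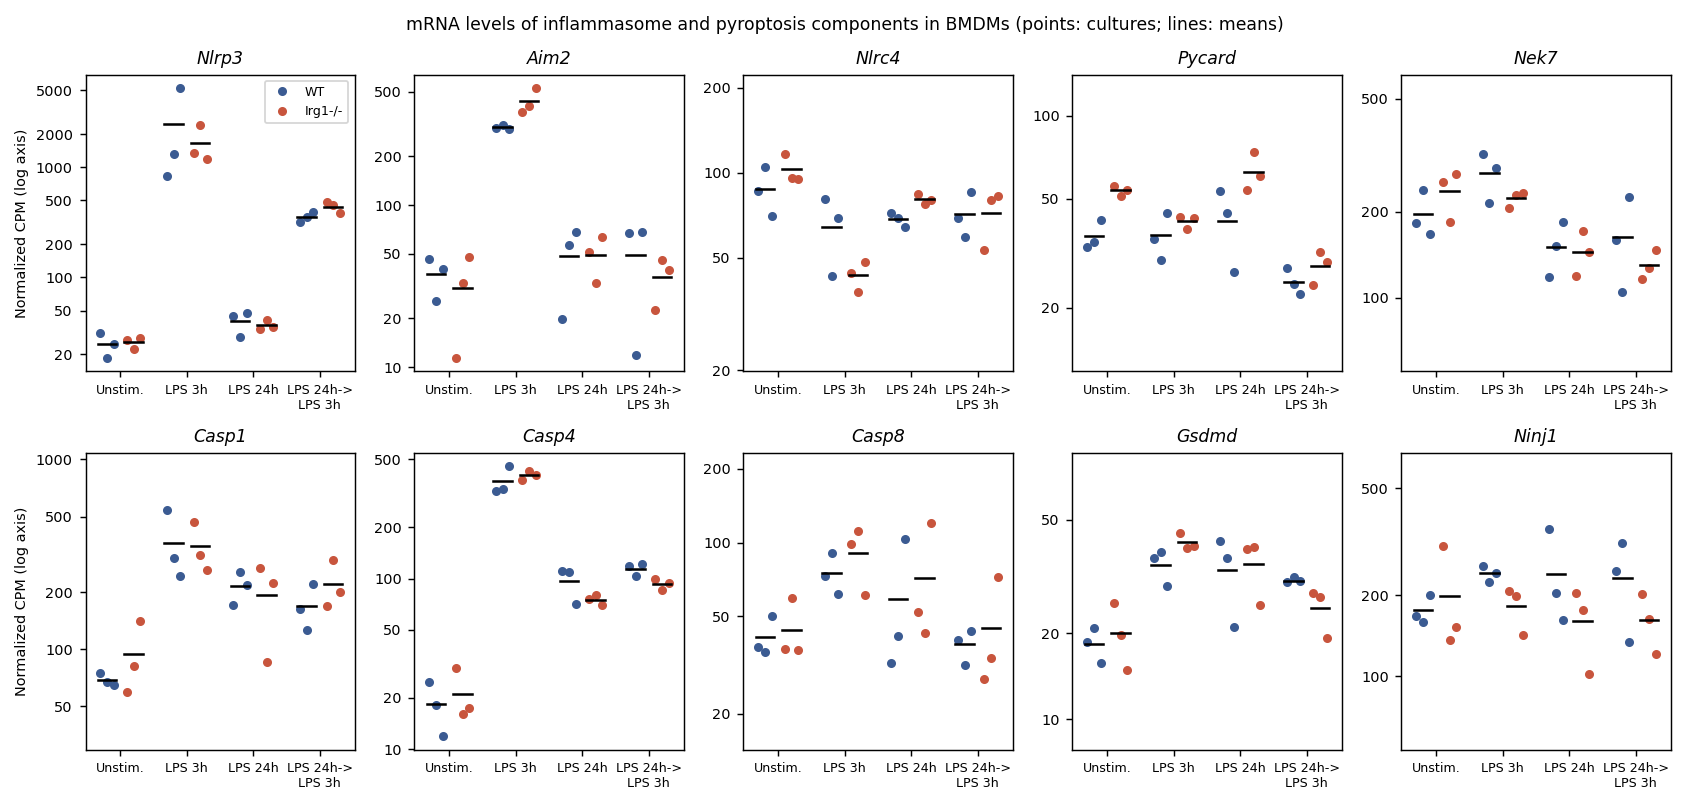
Normalized CPM (log axis) of the 10 members in each culture, by treatment, with WT in blue and Irg1-/- in red; points are cultures and black lines are group means (n = 3). Nlrp3 reached 836 to 5241 after LPS 3h and 317 to 481 after LPS 24h->LPS 3h, against 18.6 to 47.6 in the Unstim. and LPS 24h cultures.

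Among the sensors, Nlrp3 (ENSMUSG00000032691.14, protein-coding, chromosome 11 from 59541568 to 59566956, plus strand of GRCm38, the mm10 build) encodes the NLR protein that responds to potassium efflux and membrane damage. WT cultures 1, 2 and 3 had 31.5, 18.6 and 24.9 normalized CPM in Unstim., 836, 1326 and 5241 after LPS 3h, 44.8, 29.0 and 47.6 after LPS 24h, and 317, 356 and 393 after LPS 24h->LPS 3h. Irg1-/- cultures had 27.0, 22.4 and 28.4 in Unstim., 1359, 2445 and 1177 after LPS 3h, 34.0, 41.0 and 35.3 after LPS 24h, and 481, 454 and 385 after LPS 24h->LPS 3h. All LPS 3h cultures lay above all restimulated cultures, and these lay above all Unstim. and LPS 24h cultures, in both genotypes together. Against Unstim., Nlrp3 rose by a log2 fold change of 6.62 in WT (SE 0.52, adjusted p = 7.06e-12), or 98.5-fold, and of 6.00 in Irg1-/- (SE 0.50, adjusted p = 4.07e-11), or 63.9-fold. With the pool as a term the values were 7.01 in WT (129-fold) and 6.73 in Irg1-/- (106-fold), both past the threshold. It fell from LPS 3h to LPS 24h, with log2 fold changes of -5.93 in WT (SE 0.50, adjusted p = 1.91e-10) and -5.50 in Irg1-/- (SE 0.49, adjusted p = 3.40e-10). The LPS 24h difference from Unstim. was 0.69 in WT (SE 0.41) and 0.50 in Irg1-/- (SE 0.41), past the threshold in neither genotype. The Irg1-/- cultures at LPS 24h (34.0 to 41.0) lay above those of Unstim. (22.4 to 28.4), while the WT cultures overlapped. Nlrp3 was higher again in restimulated cells, with log2 fold changes against LPS 24h of 3.13 in WT (SE 0.44, adjusted p = 2.40e-05) and 3.58 in Irg1-/- (SE 0.45, adjusted p = 1.44e-06). The restimulated level stayed below that of LPS 3h, with log2 fold changes of -2.80 in WT (SE 0.43, adjusted p = 1.28e-05) and -1.92 in Irg1-/- (SE 0.42, adjusted p = 8.18e-04). WT culture 3 of LPS 3h set the size of the WT values: without it the log2 fold change was 5.48 for LPS 3h against Unstim., -4.81 for LPS 24h against LPS 3h and -1.65 for LPS 24h->LPS 3h against LPS 3h, all past the threshold. Within pools 1, 2 and 4, the WT log2 difference of restimulated from LPS 3h cultures was -1.40, -1.90 and -3.74 (1 culture against 1 each), and the Irg1-/- difference in pool 2 was -1.50 (1 against 1). In the model with replicate block and library pool the Irg1-/- value was also -1.50 and lost its call (adjusted p = 0.104).

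Aim2 (ENSMUSG00000037860.15, chromosome 1 from 173350879 to 173466040, plus strand) encodes a sensor of DNA in the cytosol. Its span overlaps Cadm3 on the opposite strand, and since strand use in the counting is not given in the sources used here, reads of this overlap are uncertain. In WT it had 46.3, 25.6 and 40.5 normalized CPM in Unstim., 301, 313 and 296 after LPS 3h, 19.8, 56.8 and 68.6 after LPS 24h, and 67.7, 11.9 and 67.8 after LPS 24h->LPS 3h. The Irg1-/- cultures had 11.4, 33.0 and 47.5 in Unstim., 375, 407 and 528 after LPS 3h, 51.3, 33.1 and 63.2 after LPS 24h, and 22.4, 45.6 and 39.9 after LPS 24h->LPS 3h. Only the LPS 3h cultures stood apart, and the other 3 treatments overlapped in both genotypes. The rise at LPS 3h was 3.02 on the log2 scale in WT (SE 0.51, adjusted p = 2.00e-05) and 3.82 in Irg1-/- (SE 0.53, adjusted p = 7.97e-07). Against LPS 3h, Aim2 was lower at LPS 24h, with log2 fold changes of -2.65 in WT (SE 0.50, adjusted p = 1.36e-04) and -3.15 in Irg1-/- (SE 0.51, adjusted p = 1.41e-05). It was also lower after LPS 24h->LPS 3h, by -2.63 in WT (SE 0.50, adjusted p = 2.11e-04) and -3.60 in Irg1-/- (SE 0.52, adjusted p = 4.32e-06). Restimulation did not raise it past the threshold in either genotype.

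Nlrc4 (ENSMUSG00000039193.7, chromosome 17 from 74425438 to 74459142, minus strand) encodes the partner of the NAIP proteins, which detect bacterial flagellin and secretion-system proteins. WT cultures had 86.2, 105 and 70.5 normalized CPM in Unstim., 80.7, 43.0 and 69.4 after LPS 3h, 72.1, 69.4 and 64.1 after LPS 24h, and 69.3, 59.2 and 85.4 after LPS 24h->LPS 3h. The Irg1-/- cultures had 117, 96.1 and 94.8 in Unstim., 44.1, 37.8 and 48.5 after LPS 3h, 84.0, 77.5 and 80.5 after LPS 24h, and 53.4, 80.3 and 82.5 after LPS 24h->LPS 3h. It was the only sensor of the 3 that did not rise against Unstim. in any treatment. In Irg1-/- it fell by 1.24 at LPS 3h on the log2 scale (SE 0.28, adjusted p = 7.30e-04), while the WT value was -0.44 (SE 0.27, not past the threshold) with overlapping cultures. From LPS 3h it then rose in Irg1-/- by 0.89 at LPS 24h (SE 0.28, adjusted p = 0.0123) and by 0.73 after LPS 24h->LPS 3h (SE 0.28, adjusted p = 0.0478). With the pool as a term the fall at LPS 3h was -0.83 (adjusted p = 0.194) and the rises were 0.42 (adjusted p = 0.556) and 0.38 (adjusted p = 0.587). The rise at LPS 24h also lost its call without Irg1-/- LPS 3h culture 1 (0.82, adjusted p = 0.0531) or culture 2 (0.72, adjusted p = 0.0904), and that after LPS 24h->LPS 3h lost it on leaving out any library but restimulated culture 1, with values of 0.60 to 0.79. The latter call held in 1 of 10 other settings, the replicate block (0.74, adjusted p = 0.0385), and its adjusted p was 0.0530 to 0.627 in the others.

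Of the scaffold genes, Pycard (ENSMUSG00000030793.4, chromosome 7 from 127989708 to 127993867, minus strand) encodes ASC, which links sensors to caspase-1. WT cultures had 33.4, 34.6 and 41.7 normalized CPM in Unstim., 35.7, 29.9 and 44.4 after LPS 3h, 53.2, 44.2 and 27.1 after LPS 24h, and 27.9, 24.4 and 22.4 after LPS 24h->LPS 3h. In the Irg1-/- cultures these were 55.6, 51.1 and 53.6, then 43.0, 38.7 and 42.4, then 53.8, 74.1 and 60.2, and 24.2, 32.0 and 29.4. The restimulated cultures held the lowest group mean in each genotype. Between LPS 24h and LPS 24h->LPS 3h Pycard fell in Irg1-/- by 1.14 on the log2 scale (SE 0.28, adjusted p = 0.00932), and the WT value was -0.74 (SE 0.28, not past the threshold). The Irg1-/- call was lost without LPS 24h culture 2 (-0.97, adjusted p = 0.0796) or without restimulated culture 1 (-0.98, adjusted p = 0.0801). Pycard did not change past the threshold between Unstim. and either LPS time in either genotype.

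Nek7 (ENSMUSG00000026393.10, chromosome 1 from 138482875 to 138620141, minus strand) encodes a kinase that binds NLRP3 and is required for its assembly. Its span holds an antisense gene that is not a row of the table. WT cultures had 183, 239 and 168 normalized CPM in Unstim., 319, 215 and 286 after LPS 3h, 118, 152 and 184 after LPS 24h, and 160, 105 and 226 after LPS 24h->LPS 3h. Irg1-/- cultures had 254, 184 and 271, then 207, 229 and 233, then 119, 171 and 145, and 116, 127 and 147. Group means were 130 to 164 at LPS 24h and LPS 24h->LPS 3h and 197 to 274 in Unstim. and at LPS 3h, and all neighbouring groups in the order of means overlapped. From LPS 3h to LPS 24h the log2 fold change was -0.85 in WT (SE 0.29, adjusted p = 0.0219), a call that was lost without culture 1 of WT LPS 3h (-0.79, adjusted p = 0.0660) or of WT LPS 24h (-0.75, adjusted p = 0.0860). After LPS 24h->LPS 3h against LPS 3h it was -0.78 in Irg1-/- (SE 0.29, adjusted p = 0.0412) and -0.74 in WT (SE 0.29, not past the threshold). Leaving out any of the 6 Irg1-/- libraries ended the latter call, with values of -0.90 to -0.73.

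Among the caspases, Casp1 (ENSMUSG00000025888.5) and Casp4 (ENSMUSG00000033538.13) are neighbours on the plus strand of chromosome 9, at 5298517 to 5307265 and 5308828 to 5336783, with 1562 bases between them. Casp1 encodes caspase-1, the protease that matures IL-1β. It had 75.2, 67.1 and 65.0 normalized CPM in WT Unstim., 539, 303 and 244 after LPS 3h, 172, 255 and 218 after LPS 24h, and 163, 127 and 220 after LPS 24h->LPS 3h. The Irg1-/- values were 59.5, 81.2 and 141, then 470, 315 and 263, then 269, 86.2 and 224, and 169, 296 and 201. All LPS 3h cultures lay above all Unstim. cultures, and so did all WT LPS 24h cultures above the WT Unstim. cultures. The rise at LPS 3h was 2.39 on the log2 scale in WT (SE 0.39, adjusted p = 1.17e-05) and 1.89 in Irg1-/- (SE 0.38, adjusted p = 2.22e-04). At LPS 24h the log2 fold change against Unstim. was 1.64 in WT (SE 0.38, adjusted p = 0.00214) and 1.04 in Irg1-/- (SE 0.37, not past the threshold), where culture 2 of LPS 24h overlapped the Unstim. range. In restimulated WT cells Casp1 was lower than at LPS 3h, with a log2 fold change of -1.09 (SE 0.37, adjusted p = 0.0309), and the Irg1-/- value was -0.65 (SE 0.37, not past the threshold). The WT call was lost without culture 1 of LPS 3h (-0.73, adjusted p = 0.203), and without culture 1 (-1.09, adjusted p = 0.0775) or culture 2 (-0.94, adjusted p = 0.124) of LPS 24h->LPS 3h.

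Casp4 encodes caspase-11. It had 24.7, 18.1 and 11.9 normalized CPM in WT Unstim., 326, 336 and 455 after LPS 3h, 111, 109 and 70.9 after LPS 24h, and 118, 103 and 122 after LPS 24h->LPS 3h. The Irg1-/- cultures had 29.9, 16.0 and 17.5, then 377, 428 and 406, then 75.7, 80.1 and 69.5, and 98.9, 85.1 and 94.2. Every LPS 3h culture lay above every culture of the 2 late treatments, and every one of those above every Unstim. culture. Against Unstim., the log2 fold change at LPS 3h was 4.35 in WT (SE 0.33, adjusted p = 2.72e-12), or 20.4-fold, and 4.26 in Irg1-/- (SE 0.33, adjusted p = 4.91e-12), or 19.1-fold. At LPS 24h it was 2.40 in WT (SE 0.30, adjusted p = 3.04e-07) and 1.83 in Irg1-/- (SE 0.30, adjusted p = 2.78e-05). The fall from LPS 3h to LPS 24h was -1.95 in WT (SE 0.29, adjusted p = 5.45e-06) and -2.43 in Irg1-/- (SE 0.30, adjusted p = 1.55e-07). Restimulation left Casp4 lower than at LPS 3h, with log2 fold changes of -1.70 in WT (SE 0.29, adjusted p = 5.15e-05) and -2.12 in Irg1-/- (SE 0.30, adjusted p = 2.23e-06), and did not change it past the threshold from LPS 24h. Casp1 and Casp4, 1 beside the other, thus both rose at LPS 3h, and Casp4 was the member that stayed above Unstim. at LPS 24h in both genotypes.

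Casp8 (ENSMUSG00000026029.14, chromosome 1 from 58795374 to 58847503, plus strand) encodes caspase-8, the initiator of death-receptor apoptosis, which can also cleave gasdermin D and pro-IL-1β. WT cultures had 37.6, 35.9 and 50.0 normalized CPM in Unstim., 73.3, 90.8 and 61.7 after LPS 3h, 32.3, 41.5 and 103 after LPS 24h, and 39.9, 31.7 and 43.8 after LPS 24h->LPS 3h. The Irg1-/- cultures had 36.9, 59.2 and 36.5, then 98.6, 112 and 60.9, then 52.2, 42.8 and 120, and 27.7, 33.9 and 72.4. LPS 3h cultures lay above Unstim. cultures within each genotype, and culture 3 was the highest in the LPS 24h and restimulated groups of both. At LPS 3h the log2 fold change was 1.04 in Irg1-/- (SE 0.41, adjusted p = 0.0481) and 0.87 in WT (SE 0.41, not past the threshold), which passed with the pool as a term (1.27, adjusted p = 0.0493). The Irg1-/- call was lost with the pool as a term (1.77, adjusted p = 0.0636) and without Unstim. culture 1 (0.97, adjusted p = 0.135) or 3 (0.96, adjusted p = 0.130), or LPS 3h culture 1 (1.03, adjusted p = 0.0986) or 2 (0.92, adjusted p = 0.143).

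Of the executors, Gsdmd (ENSMUSG00000022575.4, chromosome 15 from 75862327 to 75867408, plus strand) encodes gasdermin D, the pore-forming protein. WT cultures had 18.6, 20.8 and 15.7 normalized CPM in Unstim., 36.8, 38.4 and 29.3 after LPS 3h, 42.2, 36.8 and 21.1 after LPS 24h, and 30.2, 31.4 and 30.4 after LPS 24h->LPS 3h. Irg1-/- cultures had 25.6, 19.8 and 14.9, then 45.0, 39.7 and 40.5, then 39.5, 40.0 and 25.1, and 27.7, 26.8 and 19.3. The LPS 3h cultures lay above the Unstim. cultures in both genotypes. Gsdmd rose at LPS 3h by 0.93 in WT (SE 0.30, adjusted p = 0.0173), or 1.90-fold, and by 1.06 in Irg1-/- (SE 0.30, adjusted p = 0.00654), or 2.09-fold. At LPS 24h the log2 fold change was 0.86 in WT (SE 0.30, adjusted p = 0.0450) and 0.80 in Irg1-/- (SE 0.30, not past the threshold). These rises depended on the setting: with the pool as a term they were 0.64 (adjusted p = 0.140) and 0.73 (adjusted p = 0.302) at LPS 3h in WT and Irg1-/-, and 0.55 (adjusted p = 0.300) at LPS 24h in WT. With replicate block and pool together they were 0.94 (adjusted p = 0.0353, still called), 1.01 (adjusted p = 0.169) and 0.84 (adjusted p = 0.107). Within pool 4 the WT difference from Unstim. was 0.68 at LPS 3h and 0.21 at LPS 24h (1 culture against 3). The WT call at LPS 3h was also lost without Unstim. culture 3 (0.85, adjusted p = 0.0625), and that at LPS 24h without any library but LPS 24h culture 3, with values of 0.64 to 0.94.

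Ninj1 (ENSMUSG00000037966.15, chromosome 13 from 49187485 to 49196244, plus strand) encodes the protein that ruptures the plasma membrane after the gasdermin pore has formed. WT cultures had 168, 159 and 201 normalized CPM in Unstim., 258, 224 and 243 after LPS 3h, 354, 204 and 162 after LPS 24h, and 247, 313 and 134 after LPS 24h->LPS 3h. Irg1-/- cultures had 305, 136 and 153, then 208, 198 and 142, then 204, 176 and 102, and 202, 163 and 121. It passed the threshold in no response in either genotype, and all groups next to each other in the order of means overlapped. Groups further apart could separate: the WT LPS 3h cultures (224 to 258) lay above those of WT Unstim. (159 to 201) and of Irg1-/- LPS 3h (142 to 208). Culture 3 was the lowest in the LPS 24h and restimulated groups of both genotypes.

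The sequences shown are windows just upstream of Nlrp3 and Casp4 that hold a match to the NF-kB consensus, and they were kept for that match. These genes were also the members with the highest log2 fold changes at LPS 3h. The window of the other Nlrp3 start, which holds no match, is not shown. RefSeq promoter windows (build GRCm38.p6) were found for 9 of the 10 members, 11 windows in all. In the 250 bases before each start, 3 motifs were searched on both strands: the NF-kB consensus, the interferon-response core GAAANNGAA and the STAT-binding GAS element TTCNNNGAA. NF-kB is the factor family that Toll-like receptors activate. The NF-kB consensus matched in 3 windows, namely 1 of the 2 starts of Nlrp3 and both overlapping windows of Casp4, and it is held by 3.90% of all 32851 windows. GAAANNGAA (7.13% of all windows) and TTCNNNGAA (7.02%) matched in no window of the members. A match is a string of letters and not a measured binding site. The windows below run 5′ to 3′ to the base before the start, with the NF-kB match in capitals. That of Nlrp3 (chr11:59541319-59541568, plus strand) holds 1 match on the minus strand from base -186 to -177, and that of Casp4 (chr9:5308599-5308848, plus strand) holds 3 overlapping matches on both strands between bases -93 and -83.
Nlrp3: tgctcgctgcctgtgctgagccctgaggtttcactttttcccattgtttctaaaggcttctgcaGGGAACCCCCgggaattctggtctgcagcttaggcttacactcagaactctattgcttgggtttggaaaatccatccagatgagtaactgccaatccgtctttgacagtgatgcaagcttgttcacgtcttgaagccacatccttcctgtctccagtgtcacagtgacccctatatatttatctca
Casp4: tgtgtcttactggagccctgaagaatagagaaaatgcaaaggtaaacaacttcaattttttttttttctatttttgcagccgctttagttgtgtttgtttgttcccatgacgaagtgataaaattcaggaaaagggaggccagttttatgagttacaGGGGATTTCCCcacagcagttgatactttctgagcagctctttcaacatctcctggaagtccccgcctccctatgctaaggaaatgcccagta

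Read across the members, LPS 3h against Unstim. raised 5 of 10 in WT (Nlrp3, Casp4, Aim2, Casp1 and Gsdmd), where 15.8% of all genes tested were called higher, and lowered 0, where 16.3% were called lower. In Irg1-/- cells 6 of 10 rose (the same genes and Casp8; 17.0% of all genes) and 1 fell (Nlrc4; 18.9%). With the pool as a term these 7 Irg1-/- calls became 4, without Gsdmd, Casp8 and Nlrc4, and the calls over all genes went from 4260 to 2361. The median log2 fold change of the members was 0.90 in WT and 1.05 in Irg1-/-, against -0.18 and -0.20 over all genes tested.

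**Figure D2:**
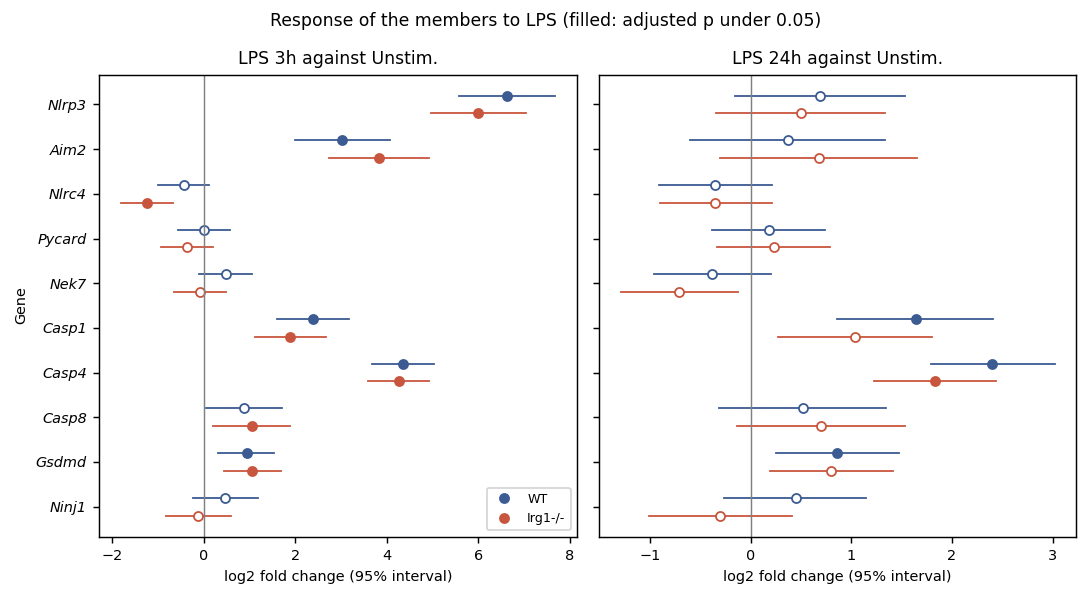
Log2 fold change of each member (x axis) at LPS 3h and LPS 24h against Unstim., with WT in blue and Irg1-/- in red; bars are 95% intervals and filled points passed the threshold. Nlrp3 lies at 6.62 and 6.00 and Casp4 at 4.35 and 4.26 at LPS 3h, whereas Pycard, Nek7 and Ninj1 have open points in both panels.

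At LPS 24h against Unstim., 3 of 10 were higher in WT (Casp4, Casp1 and Gsdmd; 9.25% of all genes) and 0 lower (6.98%). In Irg1-/- cells 1 of 10 was higher (Casp4; 7.31%) and 0 lower (6.38%). The medians of the members were 0.48 and 0.59, against 0.00 and -0.00 over all genes. From LPS 3h to LPS 24h, 4 of 10 fell in WT (Nlrp3, Aim2, Casp4 and Nek7; 15.5% of all genes) and 0 rose (16.8%). In Irg1-/- cells 3 fell (Nlrp3, Aim2 and Casp4; 16.9%) and 1 rose (Nlrc4; 18.2%). At LPS 24h the sensors Nlrp3 and Aim2 thus did not differ from Unstim. past the threshold, while Casp4 stayed higher in both genotypes.

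Restimulation was compared with the LPS 24h state it started from and with the first encounter of LPS for 3 h. In the first comparison the second LPS cannot be told apart from the medium change, the rest and the later harvest. Against LPS 24h, 1 of 10 rose in WT (Nlrp3; 2.46% of all genes) and 0 fell (1.53%), and in Irg1-/- cells 1 rose (Nlrp3; 3.44%) and 1 fell (Pycard; 1.70%). Against LPS 3h, 4 of 10 were lower in WT (Nlrp3, Aim2, Casp4 and Casp1; 13.1%) and 0 higher (12.4%). In Irg1-/- cells 4 were lower (Nlrp3, Aim2, Casp4 and Nek7; 14.1%) and 1 higher (Nlrc4; 13.1%). The medians of the members against LPS 3h were -0.85 in WT and -0.77 in Irg1-/-, against 0.13 and 0.12 over all genes. In the response comparisons where edgeR called 0 members in a direction, 0 had an unadjusted p under 0.05 in that direction and DESeq2's Wald test called 0, except that Pycard had an unadjusted p under 0.05 for the WT fall on restimulation and that Nek7 had one and was called lower by DESeq2 at LPS 24h against Unstim. in Irg1-/-. Since LPS 24h->LPS 3h stands in both comparisons, the values of a member in them are not independent.

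**Figure D3:**
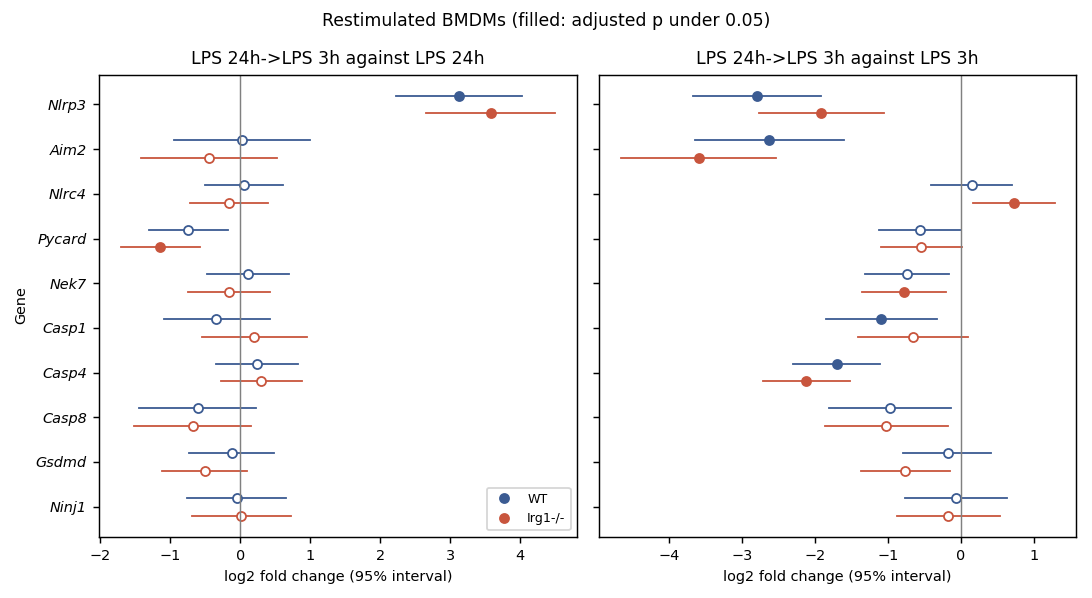
Log2 fold change of each member (x axis) after LPS 24h->LPS 3h, against LPS 24h on the left and against LPS 3h on the right, with WT in blue and Irg1-/- in red; bars are 95% intervals and filled points passed the threshold. Nlrp3 lies at 3.13 and 3.58 on the left and at -2.80 and -1.92 on the right, and Casp4 has open points on the left and lies at -1.70 and -2.12 on the right.

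The comparison of genotypes asks whether cells without Irg1 hold other amounts of these mRNAs. With edgeR's test 0 of 10 members passed the threshold in Unstim. (0.0421% of all genes were called), LPS 3h (0.00842%), LPS 24h (0.598%), LPS 24h->LPS 3h (0.118%) or the mean over the 3 LPS treatments (0.337%), and DESeq2's Wald test called 0 in each as well. At LPS 3h the 1 gene called was Acod1 itself. The shares over all genes depended on the setting: at LPS 24h the 71 genes called became 12 with the pool as a term, 3 with the compared groups alone and 9 to 165 on leaving out 1 library, and for the mean over LPS treatments 40 became 7 with the pool. At an unadjusted p under 0.05 the members numbered 0, 1, 1, 0 and 1, where 5.20%, 5.84%, 10.1%, 7.88% and 9.97% of all genes did, so these counts are near the share over all genes. They were Nlrc4 at LPS 3h with a log2 fold change of -0.57 (SE 0.28, adjusted p = 0.852), Pycard at LPS 24h with 0.60 (SE 0.27, adjusted p = 0.452) and Ninj1 in the mean over LPS treatments with -0.50 (SE 0.20, adjusted p = 0.367). Over all members the log2 fold changes of Irg1-/- against WT ran from -0.28 to 0.55 in Unstim., from -0.57 to 0.53 at LPS 3h, from -0.58 to 0.60 at LPS 24h and from -0.51 to 0.38 after LPS 24h->LPS 3h. The outermost 95% bounds of any member were -1.26 and 1.20, -1.40 and 1.49, -1.29 and 1.15, and -1.42 and 1.14 in these treatments, and the interval of a single member was often narrower. Gsdmd, for instance, had a log2 fold change of 0.06 at LPS 24h with a 95% interval from -0.54 to 0.66, and Nlrp3 had 0.31 after LPS 24h->LPS 3h with an interval from -0.52 to 1.14.

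**Figure D4:**
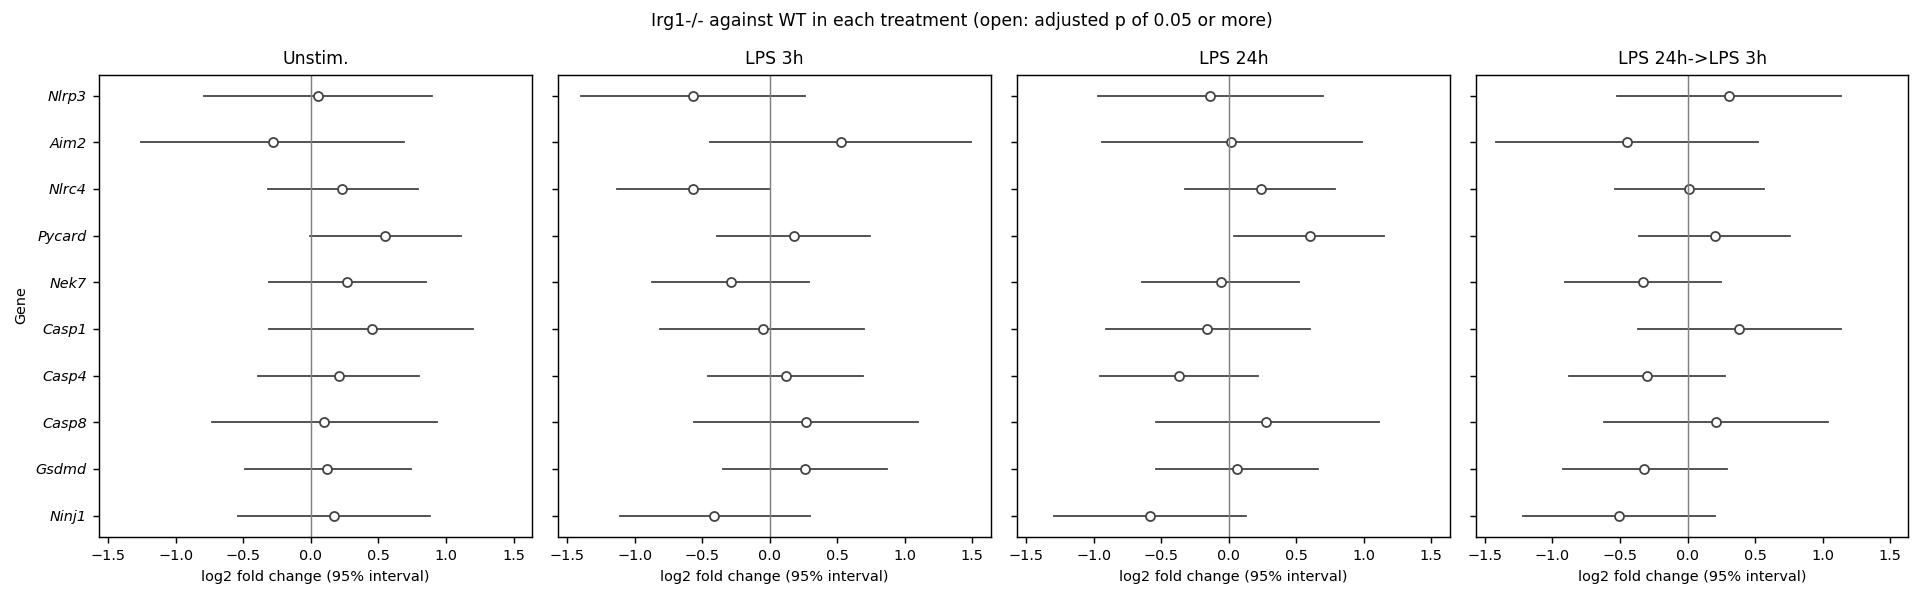
Log2 fold change of Irg1-/- against WT for each member (x axis) in the 4 treatments; points are estimates, bars are 95% intervals and open points did not pass the threshold. All points are open, and Pycard lies to the right of 0 in each panel, at 0.55, 0.18, 0.60 and 0.20.

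A second test took each member over all 4 treatments, with genotype exchanged within each treatment over all 160000 assignments (two-sided exact permutation test of log2 normalized CPM). Pycard, the ASC gene, was higher in Irg1-/- by a mean of 0.39 on the log2 scale (exact p = 6.12e-04, unadjusted, 1 of 10 members tested), with the Irg1-/- mean above the WT mean in 4 of 4 treatments. The exchange of labels took no account of the pool, although genotype was uneven over the pools in the LPS treatments. The units exchanged were cultures, and the methods do not give the number of mice behind them. The permutation p values therefore describe the spread between cultures and cannot tell genotype from pool in the LPS treatments. In Unstim. the Pycard levels of the Irg1-/- cultures (51.1 to 55.6 normalized CPM) lay above those of the WT cultures (33.4 to 41.7). At LPS 24h 53.8 to 74.1 lay above 27.1 to 53.2, while the groups overlapped in the other treatments. Such separation of the genotypes was not particular to Pycard. Gsdmd, Aim2 and Ninj1 separated at LPS 3h, Nlrc4 at LPS 24h, and Gsdmd and Casp4 after LPS 24h->LPS 3h. The share of all genes that separate in this way is not given here. Over the 3 LPS treatments alone the difference was 0.34 (exact permutation p = 0.0112). For the mean over these treatments edgeR's test gave Pycard 0.32 (SE 0.16, unadjusted p = 0.0505, adjusted p = 0.499). Within pools the Pycard difference was 0.55 in Unstim. (pool 4, 3 cultures against 3), 0.52 at LPS 3h (pool 2, 1 against 1), 0.22 at LPS 24h (pool 1, 3 against 1), and 0.14 and -0.01 after LPS 24h->LPS 3h (pool 1, 2 against 1, and pool 2, 1 against 1). The next lowest p was that of Ninj1, with -0.34 over all treatments (exact permutation p = 0.0762) and -0.48 over the LPS treatments (exact permutation p = 0.0305). The other 8 members had differences between -0.08 and 0.18 over all treatments, with exact permutation p from 0.388 to 0.965.

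Whether a response itself differed between genotypes was tested as an interaction. The members called were 0 of 10 for LPS 3h against Unstim. (0.00842% of all genes), LPS 24h against Unstim. (0.210%), LPS 24h against LPS 3h (0%), LPS 24h->LPS 3h against LPS 24h (0.00842%) and LPS 24h->LPS 3h against LPS 3h (0%), and DESeq2's Wald test gave 0 in each. The 1 gene called for LPS 3h against Unstim. was Acod1 itself. Unadjusted, 1, 0, 1, 0 and 0 members had a p under 0.05, both times Nlrc4, against 5.68%, 8.14%, 6.47%, 8.66% and 7.23% of all genes. Its response at LPS 3h differed by -0.80 in Irg1-/- against WT (SE 0.39, adjusted p = 0.869), and that from LPS 3h to LPS 24h by 0.80 (SE 0.39, adjusted p = 0.763). The calls that 1 genotype passed and the other did not (Casp8, Nlrc4, Casp1, Gsdmd, Pycard and Nek7 above) are therefore not shown to differ between genotypes. For Nlrp3 the difference in the response of LPS 24h->LPS 3h against LPS 3h was 0.88, with a 95% interval from -0.29 to 2.05.

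Other genes of the pathway were followed as 5 lists, with 44 genes listed, 44 in the table and 42 tested. At LPS 3h against Unstim., 17 were higher and 7 lower in WT, and 19 and 6 in Irg1-/-, where 15.8% and 16.3% of all genes were called in WT and 17.0% and 18.9% in Irg1-/-. At LPS 24h, 14 were higher and 3 lower in WT (9.25% and 6.98% of all genes), and 14 and 1 in Irg1-/- (7.31% and 6.38%). The counts of lower genes in WT were thus close to the shares over all genes. On restimulation from LPS 24h, 3 rose and 0 fell in WT, and 3 rose and 3 fell in Irg1-/- (2.46% and 1.53% of all genes in WT, and 3.44% and 1.70% in Irg1-/-). In each of the interaction tests 0 of 42 passed the threshold, where at most 0.210% of all genes did. List genes called in 1 genotype and not in the other are therefore not shown to differ in response between genotypes.

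Among 9 other sensors tested, 2 rose and 2 fell in WT at LPS 3h, close to the 15.8% and 16.3% of all genes. Mefv, the gene of pyrin, had the highest value, from 0.598 ± 0.434 to 25.3 ± 9.96 normalized CPM (SD, n = 3; log2 fold change 5.48, SE 0.59, adjusted p = 6.17e-09). The WT Unstim. libraries held 13, 9 and 2 reads of Mefv, so the size of this fold is uncertain. Nlrp1a had the lowest, from 2.41 ± 1.76 to 0.283 ± 0.391, where the LPS 3h libraries held 0 to 4 reads, so no fold is given, and the cultures overlapped. Its paralog Nlrp1b had the lowest value at LPS 24h, from 35.6 ± 21.4 to 12.6 ± 3.32 (-1.49, SE 0.51, adjusted p = 0.0438), and reads of the pair may be shared. The Nlrp1b call was lost with the pool as a term (-1.11, adjusted p = 0.219) and with replicate block and pool (-1.48, adjusted p = 0.164). It was also lost without Unstim. culture 1 (-0.90, adjusted p = 0.341) or 2 (-1.67, adjusted p = 0.0513). The same held without LPS 24h culture 1 (-1.36, adjusted p = 0.135) or 2 (-1.43, adjusted p = 0.141). In Irg1-/- the Nlrp1b value was -0.52 (adjusted p = 0.578). The highest at LPS 24h was Zbp1, a sensor of Z-form nucleic acid, from 3.97 ± 1.59 to 137 ± 34.2 (5.08, SE 0.37, adjusted p = 3.68e-12).

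Among 11 genes of signal 2 and licensing, 4 rose and 4 fell in WT at LPS 3h, so the list had no common direction. Gbp5, a guanylate-binding protein that promotes NLRP3 assembly, rose from 2.59 ± 0.110 to 1819 ± 296 (log2 fold change 9.45, SE 0.79, adjusted p = 3.00e-11). Txnip, the thioredoxin-binding protein, fell from 659 ± 28.7 to 158 ± 11.1 (-2.06, SE 0.33, adjusted p = 7.41e-06). At LPS 24h the extremes in WT were Gbp2, which rose from 7.08 ± 2.07 to 253 ± 25.0 (5.16, SE 0.37, adjusted p = 4.10e-12), and the potassium channel gene Kcnk6, which fell from 66.7 ± 7.06 to 28.2 ± 3.42 (-1.24, SE 0.34, adjusted p = 0.00930). Kcnk6 had 32.2 ± 11.6 and 36.8 ± 11.9 in Irg1-/- (0.19, SE 0.34, adjusted p = 0.789), and the WT call was lost with replicate block and pool (-0.91, adjusted p = 0.124). Guanylate-binding protein genes are near copies of each other, and their reads may be split between them. Gbp2 was also the gene of this list that was lower in Irg1-/- after LPS 24h->LPS 3h, with 139 ± 11.7 against 391 ± 154 in WT (-1.49, SE 0.32, adjusted p = 0.0453), and in the mean over the LPS treatments (-0.77, SE 0.18, adjusted p = 0.0492). With the pool as a term neither passed the threshold (-1.35, adjusted p = 0.103, and -0.58, adjusted p = 0.434). Both were also lost with the compared groups alone (-1.50, adjusted p = 0.193, and -0.75, adjusted p = 0.0651). The first was lost without any library of the compared groups but restimulated WT culture 1 (-1.54 to -1.15). The second was lost without any LPS library but culture 1 of WT LPS 24h or WT LPS 24h->LPS 3h (-0.82 to -0.65).

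Of 6 substrates and cytokine regulators tested, 5 rose in WT at LPS 3h. Il1b, the gene of pro-IL-1β, had the highest log2 fold change, 10.10 (SE 0.44, adjusted p = 3.71e-17), and Il18bp, the IL-18 inhibitor, the lowest of those called, 2.51 (SE 0.39, adjusted p = 6.70e-06), with 0.72 in Irg1-/- (SE 0.38, adjusted p = 0.142). At LPS 24h these were again the highest and the lowest called, with 6.10 (SE 0.38, adjusted p = 2.04e-13) and 3.54 (SE 0.41, adjusted p = 6.13e-08). On restimulation in WT, Il1a rose by 2.32 (SE 0.38, adjusted p = 2.10e-04) and Il1b by 2.31 (SE 0.31, adjusted p = 1.42e-05) from LPS 24h. With Nlrp3 and Cflar they were thus the only genes among members and lists that rose on restimulation in WT. Il1a, the gene of the alarmin IL-1α, was lower in Irg1-/- than in WT at LPS 24h, with 51.5 ± 22.8 against 149 ± 29.7 (-1.53, SE 0.37, adjusted p = 0.0459). This call held with the pool as a term but was lost with the compared groups alone (-1.50, adjusted p = 0.238) and without any library but Irg1-/- culture 1 (-1.66 to -1.29). Il1a and Gbp2 were named here after their values had been seen as the only list genes called between genotypes.

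Of 10 genes that link pyroptosis to apoptosis and necroptosis, 5 rose and 1 fell in WT at LPS 3h. Cflar, the gene of the caspase-8 regulator cFLIP, rose from 141 ± 28.7 to 4428 ± 542 (log2 fold change 4.97, SE 0.32, adjusted p = 9.30e-14), and again on restimulation from 715 ± 88.3 to 1513 ± 188 (1.08, SE 0.27, adjusted p = 0.0189). The latter call was lost with the compared groups alone (1.07, adjusted p = 0.185) and without LPS 24h culture 3 (1.06, adjusted p = 0.0646) or restimulated culture 2 (1.03, adjusted p = 0.0552). Casp9, the initiator caspase of the mitochondrial route, fell from 12.9 ± 3.70 to 1.54 ± 0.514 (-3.07, SE 0.56, adjusted p = 5.73e-05). At LPS 24h in WT Mlkl, the executor of necroptosis, rose from 7.52 ± 2.98 to 70.5 ± 6.80 (3.22, SE 0.32, adjusted p = 2.97e-09) and Ripk1 fell from 132 ± 78.0 to 63.5 ± 2.42 (-1.05, SE 0.32, adjusted p = 0.0208). Unstim. culture 2 had 222 normalized CPM of Ripk1 against 88.1 and 85.3, the call was lost without it (-0.46, adjusted p = 0.392) and with the pool as a term (-0.89, adjusted p = 0.123), and Irg1-/- cells had 85.3 ± 19.0 and 110 ± 32.2 (0.36, SE 0.32, adjusted p = 0.534). Of 6 ESCRT genes, whose products repair gasdermin pores, only Chmp4b was called higher at LPS 3h in WT (1.00, SE 0.38, adjusted p = 0.0393), 1 of 6 where 15.8% of all genes were. The WT cultures overlapped, with 216, 158 and 301 normalized CPM in Unstim. and 292, 789 and 272 at LPS 3h, and without culture 2 of LPS 3h the value was 0.37 (adjusted p = 0.503). In Irg1-/- Chmp4b had 122 to 221 and 305 to 584 (1.26, SE 0.38, adjusted p = 0.00984). Of the ESCRT genes none passed the threshold at LPS 24h in either genotype.

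The pattern of each member over the 24 libraries was compared with all other genes tested by Pearson's r of log2 CPM. The libraries share pools and the groups share the course of the LPS treatment, so these values describe likeness and carry no test. Nlrp3 was most like Hivep3 (r = 0.973), Sdc4 (0.969) and Ccl3 (0.969), and Casp4 was most like Ccdc86 (0.982), Cd40 (0.974) and Cflar (0.973). Aim2 was most like Zup1 (0.959), Tbc1d1 (0.949) and Txlng (0.948). For Casp1 the nearest were Zcchc2 (0.908), Ifit2 (0.893) and Gbp3 (0.891), and for Gsdmd they were Srgn (0.894), Oas2 (0.885) and Rnf114 (0.877). Ifit2, Gbp3 and Oas2 are known as interferon-induced genes. Nlrc4 was most like Mmgt2 (0.870), Acad12 (0.854) and Harbi1 (0.845), and Nek7 was most like Ddx3x (0.855), Pcmtd1 (0.848) and Far1 (0.845). The likeness was weakest for Ninj1 (Atox1, 0.826; Blvrb, 0.797; Eif5a, 0.794), Casp8 (Cacybp, 0.808; Rars, 0.807; Brwd3, 0.787) and Pycard (Ccnd3, 0.767; Slc12a9, 0.751; Ncaph, 0.745).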

How the data were processed

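Bulk 3′-end RNA-seq was performed on 24 BMDM libraries. Per the labels and methods, mRNA was primed with barcoded oligo-dT, cDNA was pooled and amplified for 12 PCR cycles without molecular identifiers, and reads were aligned to mm10 with STAR. The authors deposited whole-number read counts per gene, without normalization; the counter, annotation and strand setting are not given in the sources used here. Rows that name no gene (40.6% to 52.0% of a column) were left out. Genes kept by filterByExpr (11878 of 22165) were scaled by TMM and tested with edgeR 4.0.16 (8 groups, all libraries, Benjamini-Hochberg). Log2 CPM values used a prior count of 2, the SE is the log2 fold change over the square root of F, and 95% intervals use the fit's moderated degrees of freedom. Single members were also compared by exact permutation. Alternatives used DESeq2 1.42.0, other filters and scalings, the replicate number, the pool, the compared groups alone and each library left out. All members are named in every group, with fold changes where a response was called in at least 1 genotype or a genotype contrast had an unadjusted p under 0.05. Pathway lists are given as counts with the extremes called in WT, and likeness as the 3 nearest genes. Members, lists and motifs were chosen with earlier results of these data known. The fits were tested on simulated counts.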

Additional observations from a re-analysis of the deposited data

How the results depend on the processing

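Of 36 calls of a member in a response, none changed direction under any alternative. Calls of Nlrp3, Aim2 and Casp4 passed the threshold under all of them but 1, Nlrp3 in Irg1-/- LPS 24h->LPS 3h against LPS 3h with replicate block and library pool. The pool as a term ended 8 calls, the replicate block with the pool 8, no filter on low counts 3, the compared groups alone 3, and DESeq2 size factors, DESeq2's Wald test, a mean of at least 10 counts, TMM without the top 20 genes and the replicate block nested in genotype 1 each; they were calls of Gsdmd, Nlrc4, Nek7, Casp8 and Nlrp3. In Irg1-/- the number of members called at LPS 3h against Unstim. went from 7 to 4 with the pool, with or without the replicate block. At LPS 24h against Unstim. it went from 1 to 2 without a filter, with the replicate block (also nested) and with the pool, and to 3 with DESeq2's Wald test, and it ranged from 1 to 2 when a library was left out. After LPS 24h->LPS 3h it then ranged from 1 to 2 against LPS 24h and from 3 to 5 against LPS 3h, and the latter was 3 with the pool and 2 with replicate block and pool. The cause was not tested. Whether the replicate numbers pair the cultures was not settled. In 0 of 14 compared pairs of groups did all same-numbered cultures correlate above 0.1 in their deviations from group means (r from -0.1 to 0.34). This rule cannot exclude a pairing of some cultures. Between LPS 24h and LPS 24h->LPS 3h, cultures numbered 3 correlated at 0.34 in Irg1-/- and at 0.26 in WT. Between Unstim. and LPS 3h in WT they correlated at -0.09. The replicate block ended 0 of the 36 calls. The permutation difference of Pycard was 0.39 with a prior count of 0.5 and 0.41 with DESeq2 size factors.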
